A study of Mus musculus with 14 samples.

Results

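Nrf2 (encoded by Nfe2l2), 7 of its antioxidant target genes and the metallothioneins Mt1 and Mt2 were followed in liver sinusoidal endothelial cells (LSECs) after acute liver injury. These 10 genes were chosen by symbol, whatever their level but with earlier results of these data known. They are among the 54524 genes of the count table, and all 10 passed the filter on low counts that 26626 genes passed. Bulk RNA sequencing was done on LSECs of male Balb/c mice that were either healthy and not injected (n = 4) or had received CCl4, a hepatotoxic solvent, once, and were examined at day 1 (n = 2), day 3 (n = 4) or day 7 (n = 4). CCl4 was diluted in mineral oil and given intraperitoneally at 0.5 µL per g, at an age the labels give as 10 to 12 weeks for all mice, and no group received mineral oil alone. Cells carrying CD32 but lacking F4/80, ultraviolet autofluorescence and propidium iodide were sorted and used without culture, and the methods add that the sorted cells lacked CD45, a marker of leukocytes. In such bulk samples fewer cells of a type and less RNA per cell cannot be told apart. Further day 1 samples had been left out by the authors for RNA quality, so that day 1 rests on 2 libraries.

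Nrf2 is held low by Keap1, which marks it for degradation, and is stabilised when reactive compounds modify Keap1. It then binds antioxidant response elements with small Maf proteins and raises genes of glutathione synthesis, thiol reduction, quinone reduction and heme breakdown. Metallothioneins are small cysteine-rich proteins that bind zinc and copper, and their genes respond to zinc through the metal-responsive factor Mtf1 and also to glucocorticoids and inflammation.

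At day 1, 4 of the 10 genes were called higher than in healthy LSECs, against 2.42% of all genes tested. None was called lower, against 1.64% of all genes. The cystine transporter Slc7a11 rose 23.7-fold, Mt2 13.2-fold, heme oxygenase 1 (Hmox1) 3.90-fold and thioredoxin reductase 1 (Txnrd1) 2.78-fold. By day 3, Slc7a11 (5.29-fold) and Txnrd1 (1.74-fold) were called higher than in healthy LSECs, against 4.62% of all genes. By day 7 none of the 10 was called, against 2.19% of all genes called higher and 0.992% lower. Nfe2l2 itself, Nqo1, Gclc and Gclm were called in none of the 3 comparisons with healthy LSECs.

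Of the 10 genes, 8 matched a RefSeq promoter window of GRCm38.p6, and Hmox1 and Gclc did not. The stretches at the starts of the 4 of these 8 genes with the largest fold changes at day 1 are shown, so that the elements each of them holds can be compared. Each line gives 250 bases before the start and the first 30 bases from it, 5′ to 3′ on the gene's strand, with motif matches in capitals.
Slc7a11 (chr3:50443584-50443863, minus strand): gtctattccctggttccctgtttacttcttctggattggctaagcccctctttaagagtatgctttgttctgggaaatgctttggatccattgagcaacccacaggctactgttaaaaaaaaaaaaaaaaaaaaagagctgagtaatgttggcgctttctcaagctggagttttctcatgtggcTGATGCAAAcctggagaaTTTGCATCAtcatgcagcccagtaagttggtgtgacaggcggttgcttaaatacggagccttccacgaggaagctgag
Txnrd1, its second of 3 windows (chr10:82858956-82859235, plus strand): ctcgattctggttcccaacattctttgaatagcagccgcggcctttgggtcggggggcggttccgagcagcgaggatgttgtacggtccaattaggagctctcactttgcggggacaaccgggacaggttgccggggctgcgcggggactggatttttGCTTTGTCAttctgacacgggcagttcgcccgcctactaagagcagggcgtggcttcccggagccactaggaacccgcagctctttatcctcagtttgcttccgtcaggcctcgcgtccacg
Mt1 (chr8:94178839-94179118, plus strand): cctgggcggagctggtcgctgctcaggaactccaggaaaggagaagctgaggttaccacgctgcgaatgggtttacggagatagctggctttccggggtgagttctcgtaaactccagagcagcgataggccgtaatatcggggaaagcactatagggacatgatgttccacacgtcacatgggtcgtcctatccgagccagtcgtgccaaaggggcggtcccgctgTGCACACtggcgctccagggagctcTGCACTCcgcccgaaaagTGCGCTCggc
Mt2 (chr8:94172368-94172647, plus strand): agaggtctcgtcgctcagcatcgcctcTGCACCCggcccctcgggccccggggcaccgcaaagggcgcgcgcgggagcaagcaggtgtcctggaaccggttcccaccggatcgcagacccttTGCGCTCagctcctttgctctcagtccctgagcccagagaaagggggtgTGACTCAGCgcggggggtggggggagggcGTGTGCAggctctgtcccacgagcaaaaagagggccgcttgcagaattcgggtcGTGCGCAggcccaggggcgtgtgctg
The capitals mark 3 motifs searched on both strands: the antioxidant response element core TGACNNNGC, the metal response element core TGCACNC or TGCGCNC, and the C/EBP-ATF response element core TGATGNAAN. In Slc7a11 they are a facing pair of C/EBP-ATF cores that begin 66 and 48 bases before the start, a motif held by 3.96% of all 32817 windows of 300 bases. The second window of Txnrd1 held 1 antioxidant core on the opposite strand, beginning 92 bases before the start, its other 2 windows held no match, and 12.4% of all windows hold such a core. Mt1 held 3 metal response cores, and Mt2 held 4 beside 1 antioxidant core 79 bases before its start, while 25.7% of all windows hold a metal response core. Among the other members, Nfe2l2 held an antioxidant core 240 bases before its start, Gclm one at 134 bases, and Srxn1 one within the first bases of the transcript. Metal response cores were not limited to the metallothioneins: Gclm held 3, of which 1 overlaps its antioxidant core, and Srxn1 held 1. No motif of the 3 was found in the window of Nqo1, and bases more than 250 before the start of a window's transcript were not searched for any gene. These matches describe letters only and do not show binding.

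The libraries held 46401496 to 103912264 counts on genes, and levels are given as CPM, a gene's count relative to the library total after TMM scaling. The 12 LSEC markers were detected in every library, with a summed level of 18663 to 22385 CPM in healthy LSECs. After CCl4 the sum was lower, with 13543 and 16744 CPM at day 1, a range of 11343 to 15721 CPM at day 3, and one of 10815 to 15735 CPM at day 7. The LSEC markers did not move alike. At day 1, 6 of the 12 were below the healthy range and 2 above it. Of all genes, 37.9% did not overlap in either direction in that comparison. Those above were Lyve1 (387 ± 109 CPM, SD, n = 4, in healthy LSECs and 3209 ± 266, n = 2, at day 1) and Cdh5 (289 ± 47.3 and 604 ± 19.7 CPM). Markers of other cells were present too, including those of leukocytes that a gate against CD45 would remove. Ptprc, which encodes CD45, was at 36.9 to 110 CPM in healthy LSECs and 128 to 177 CPM at day 1. The 12 monocyte and neutrophil markers, among them S100a8, S100a9 and Lcn2, summed to 82.0 to 343 CPM in healthy LSECs and 7243 and 3190 CPM at day 1. At day 3 the sum was 5214, 2924, 244 and 177 CPM in replicates 1 to 4, so that replicates 1 and 2 stood apart from replicates 3 and 4, and at day 7 it was 377 to 627 CPM. All 12 of these markers were above the healthy range at day 1, where 37.9% of all genes did not overlap in either direction. Of the 12, 5 passed the test as higher, against 2.42% of all genes. Fcnb, a granulocyte precursor gene, was at 0 in at least 1 library of healthy, day 3 and day 7 LSECs, and Retnlg in at least 1 of day 3. The 14 hepatocyte markers summed to 383 to 652 CPM in 3 healthy libraries and to 12724 CPM in healthy replicate 4, against 203 and 274 CPM at day 1, 1389 to 4347 CPM at day 3 and 1293 to 9619 CPM at day 7. The 13 macrophage and Kupffer cell markers summed to 779 CPM in healthy replicate 1 and 2058 to 3187 CPM in the other healthy libraries, and to 4433 and 2771 CPM at day 1. Their sum was 10896, 7828, 2446 and 2520 CPM in day 3 replicates 1 to 4. At day 7 it was 6528 to 11994 CPM, and every library was above the healthy range. Lyz2 alone averaged 7279 CPM at day 7 and 760 CPM in healthy LSECs.

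Per length of exon, Mt1 led in healthy LSECs with 704 ± 278 CPM per kb (SD, n = 4). Mt2 (85.3 ± 44.3), Nfe2l2 (84.4 ± 6.06) and Hmox1 (80.1 ± 30.5) came next and differed from each other by less than their SD. Gclc (15.6 ± 4.23) and Srxn1 (9.30 ± 1.04) were lower, then Txnrd1 (7.79 ± 0.518), Nqo1 (7.11 ± 1.28) and Gclm (6.95 ± 3.01), which differed from each other by less than the larger SD, and Slc7a11 was last. At day 1 the order at the top was Mt1 (2583 ± 943, n = 2), Mt2 (1122 ± 517) and Hmox1 (313 ± 216), with Nfe2l2 at 75.3 ± 4.63.

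Slc7a11 encodes the light chain of the cystine-glutamate exchanger, which brings in cystine for glutathione synthesis (chromosome 3, 49892526 to 50443614, minus strand). Its level was 0.828, 1.23, 0.905 and 1.04 CPM in healthy replicates 1 to 4, 34.5 and 12.9 CPM at day 1, 10.5, 6.19, 2.51 and 2.06 CPM at day 3, and 4.31, 3.37, 2.58 and 2.35 CPM at day 7. Every injured mouse was above every healthy mouse at all 3 times. The log2 fold change was 4.56 at day 1 (standard error, SE, 0.58, adjusted p = 0.000761, edgeR's quasi-likelihood test with Benjamini-Hochberg adjustment), 2.40 at day 3 (SE 0.50, adjusted p = 0.0126) and 1.65 at day 7 (SE 0.49, adjusted p = 0.0798). Without day 1 replicate 1 the day 1 log2 fold change was 3.65 and still passed (adjusted p = 0.0176). The difference from day 1 to day 3, -2.16 on the log2 scale, did not pass (adjusted p = 0.0579). Slc7a11 was the lowest of the 10 genes per length, at 0.0720 ± 0.0128 CPM per kb of exon (SD, n = 4) in healthy LSECs and 1.70 ± 1.10 (n = 2) at day 1.

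Slc3a2, the heavy chain that pairs with Slc7a11, was at 419 ± 29.6 CPM (SD, n = 4) in healthy LSECs and 652 ± 12.9 (n = 2) at day 1, above the healthy range with a log2 fold change of 0.64 that did not pass (adjusted p = 0.10). It was lower at day 3 than at day 1 (log2 fold change -1.01, SE 0.20, adjusted p = 0.0188). Both chains were thus highest at day 1, with only the light chain called.

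The glutamate-cysteine ligase subunits, which make the rate-limiting step of glutathione synthesis, gave a smaller difference. Gclc, the catalytic subunit (chromosome 9, 77754535 to 77794485, plus strand), was at 47.2, 52.0, 53.6 and 82.4 CPM in healthy LSECs, 88.7 and 74.3 CPM at day 1, 33.9, 40.3, 55.2 and 42.7 CPM at day 3 and 36.2, 41.7, 35.1 and 42.7 CPM at day 7. Day 1 overlapped the healthy range only through healthy replicate 4, and all day 7 mice were below all healthy mice. The log2 fold changes were 0.47 at day 1 (adjusted p = 0.345), -0.45 at day 3 (adjusted p = 0.208) and -0.59 at day 7 (adjusted p = 0.118), so that no difference passed.

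Gclm, the modifier subunit (chromosome 3, 122245557 to 122270732, plus strand), was at 33.3, 37.4, 32.2 and 71.9 CPM in healthy LSECs and 53.3 and 35.6 CPM at day 1. It was at 22.5, 24.95, 52.3 and 67.3 CPM at day 3 and 30.5, 29.9, 41.5 and 29.4 CPM at day 7. The groups overlapped at all times, and the log2 fold changes against healthy of 0.02, -0.07 and -0.41 did not pass (adjusted p = 0.995, 0.938 and 0.541). Healthy replicate 4, the highest healthy library for both subunits, was also the one with the hepatocyte marker sum of 12724 CPM, whose part in these levels was not tested. The exons of Gclm overlap those of the antisense gene Gm17494, with 2541 to 13636 counts per library against 1467 to 6337 for Gclm. The sources used here do not say whether counting used the strand, so that these 2 genes cannot be told apart.

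**Figure D1:**
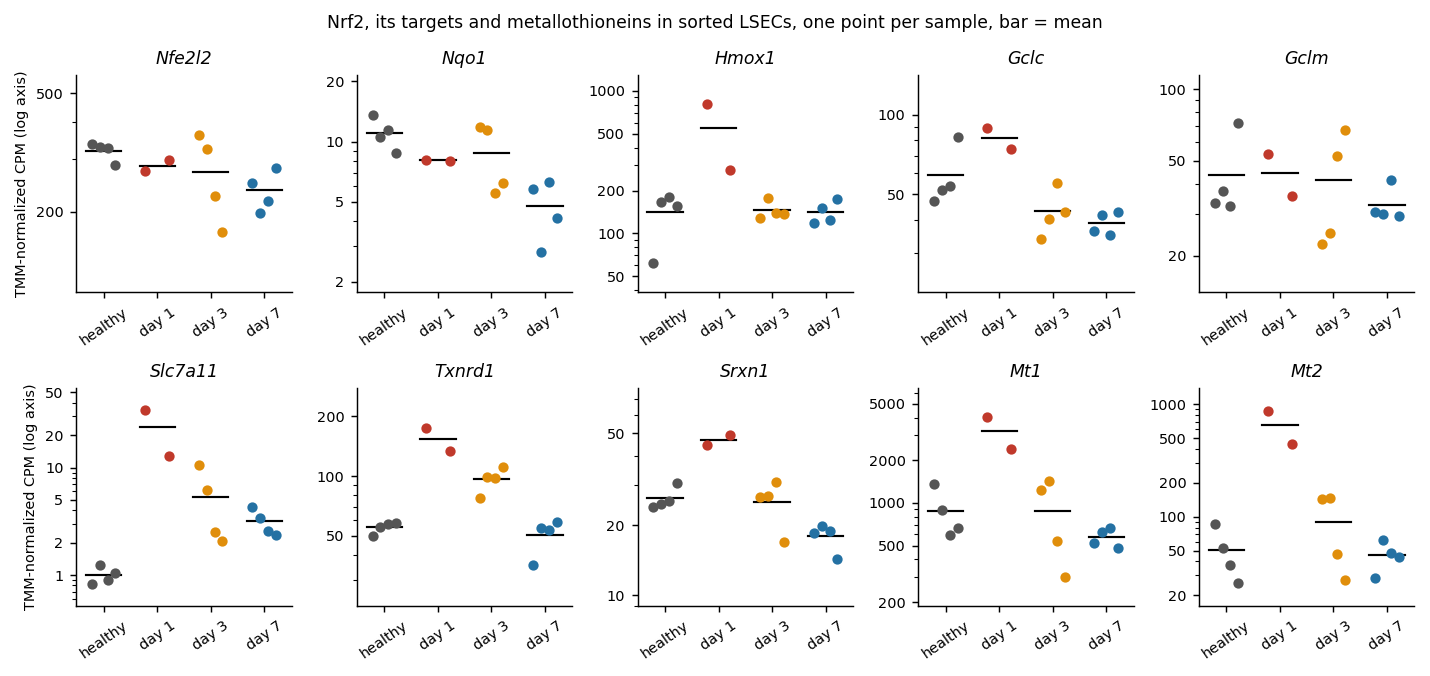
Level of each of the 10 genes in TMM-normalized CPM (log axis) in healthy LSECs and at days 1, 3 and 7 after CCl4; each point is 1 sample, in order of replicate number from left to right, and the bar is the group mean. Slc7a11, Hmox1, Txnrd1, Srxn1, Mt1 and Mt2 are above the healthy range in both day 1 samples, and Slc7a11 in all 10 samples from injured mice.

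Among the thiol-reducing enzymes, Txnrd1 rose at days 1 and 3. It reduces thioredoxin with NADPH (chromosome 10, 82833951 to 82897712, plus strand). It was at 49.99, 55.2, 57.5 and 58.0 CPM in healthy LSECs, 173 and 133 CPM at day 1, 77.5, 98.6, 97.2 and 111 CPM at day 3, and 35.7, 54.6, 53.4 and 59.0 CPM at day 7. Day 1 and day 3 lay above the healthy range without overlap, and day 7 overlapped it. The log2 fold change was 1.47 at day 1 (SE 0.21, edgeR's adjusted p = 0.00167), 0.80 at day 3 (SE 0.18, adjusted p = 0.0180) and -0.12 at day 7 (adjusted p = 0.741), and the fall from day 3 to day 7 passed the test (-0.92, SE 0.18, adjusted p = 0.0244). The day 1 call was lost without day 1 replicate 1 (adjusted p = 0.0991), the day 3 call in 6 of 17 alternatives (no filter on low counts, only the 2 groups compared, and without healthy replicate 1, 2 or 4 or day 3 replicate 3), and the call between days 3 and 7 in 10 of 17 alternatives.

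Srxn1, sulfiredoxin, restores peroxiredoxins that have been over-oxidised (chromosome 2, 152105516 to 152111376, plus strand). Its level was 24.1, 24.7, 25.6 and 30.5 CPM in healthy LSECs, 44.5 and 49.1 CPM at day 1, 26.4, 26.9, 30.7 and 17.0 CPM at day 3, and 18.5, 20.0, 19.0 and 14.4 CPM at day 7. Both day 1 mice were above, and all 4 day 7 mice below, the healthy range. Neither difference passed, with a log2 fold change of 0.84 at day 1 (SE 0.23, adjusted p = 0.0600) and -0.55 at day 7 (SE 0.19, adjusted p = 0.130).

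Hmox1 breaks heme down to biliverdin, carbon monoxide and iron, and is repressed by Bach1 as well as activated by Nrf2 (chromosome 8, 75093621 to 75100589, plus strand). It was at 61.6, 165, 179 and 155 CPM in healthy LSECs and 815 and 280 CPM at day 1. It was at 128, 177, 140 and 138 CPM at day 3 and 118, 150, 124 and 173 CPM at day 7. Only day 1 stood above the healthy range. The log2 fold change was 1.96 at day 1 (SE 0.40, adjusted p = 0.0133), 0.05 at day 3 (adjusted p = 0.947) and 0.01 at day 7 (adjusted p = 0.992), and the level fell by 1.91 on the log2 scale from day 1 to day 3 (SE 0.40, adjusted p = 0.0241). Without day 1 replicate 1, the log2 fold change was 0.96 at day 1 and -1.02 from day 1 to day 3, and neither passed. Both calls were also lost with only the 2 groups compared (adjusted p = 0.0718 and 0.0915) and with the sample number as a block. The day 1 call was kept in 11 of 14 alternatives and the fall to day 3 in 12 of 15. Healthy replicate 1 was the lowest healthy library for Hmox1 and for the macrophage and Kupffer cell markers, and day 1 replicate 1 was above replicate 2 for both. The day 7 libraries had Hmox1 inside the healthy range and marker sums above those of day 1. Those day 7 sums were mostly Lyz2 (7279 ± 2500 CPM, SD, n = 4, against 1605 ± 136, n = 2, at day 1). Of the 13 markers, 3 were above the healthy range at day 7, against 20.8% of all genes without overlap in either direction. The part of macrophages and Kupffer cells in the day 1 rise of Hmox1 was not tested.

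Nqo1, the quinone reductase often used as a readout of Nrf2, did not share the day 1 rise (chromosome 8, 107388225 to 107403206, minus strand). It was at 13.5, 10.5, 11.4 and 8.74 CPM in healthy LSECs, 8.12 and 7.99 CPM at day 1, 11.8, 11.4, 5.52 and 6.22 CPM at day 3, and 5.80, 2.83, 6.31 and 4.18 CPM at day 7. Day 1 and day 7 were below every healthy mouse, and day 3 split between replicates 1 and 2 within the healthy range and replicates 3 and 4 under it. The log2 fold change was -0.45 at day 1 (adjusted p = 0.627), -0.33 at day 3 (adjusted p = 0.585) and -1.21 at day 7 (SE 0.32, adjusted p = 0.0554). The day 7 difference passed in 6 of 16 alternatives.

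Nfe2l2 was high in all libraries (chromosome 2, 75675513 to 75704641, minus strand). Its level was 338, 330, 327 and 287 CPM in healthy LSECs, 273 and 298 CPM at day 1, 361, 326, 227 and 172 CPM at day 3, and 251, 198, 218 and 280 CPM at day 7. Day 1 overlapped the healthy range and day 7 was below it. The log2 fold changes of -0.17, -0.24 and -0.44 did not pass (adjusted p = 0.838, 0.567 and 0.260). Among 16 regulators and partners of Nrf2, none was called against healthy at any of the 3 times. Of all genes, 2.42% were called higher and 1.64% lower at day 1, 4.62% and 2.58% at day 3, and 2.19% and 0.992% at day 7. With shares this low, 0 of 16 does not set these genes apart. At day 1, 5 of the 16 were above and 2 below the healthy range, against 37.9% of all genes without overlap. Keap1 was at a log2 fold change of -0.21 at day 1 (edgeR's adjusted p = 0.878) and Bach1 at -0.28 (adjusted p = 0.788). Because Nrf2 is governed mostly through its protein, these transcript levels do not measure its activity.

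Mt1 was the most abundant of the 10 genes per length in every group. It lies on chromosome 8 (94179082 to 94180327, plus strand), next to Mt2. Its level was 1360, 895, 591 and 665 CPM in healthy LSECs, 4049 and 2388 CPM at day 1, 1230, 1434, 542 and 301 CPM at day 3, and 522, 624, 666 and 483 CPM at day 7. Both day 1 mice were above the healthy range, and the log2 fold change of 1.87 (SE 0.49) stood just outside the threshold (adjusted p = 0.0502). It passed in 7 of 14 alternatives, with adjusted p from 0.000696 to 0.537 over all of them. At day 3 the log2 fold change was -0.00 (adjusted p = 0.999) and at day 7 -0.61 (adjusted p = 0.425).

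Mt2 (chromosome 8, 94172664 to 94173568, plus strand) moved further than its neighbour. It was at 85.7, 52.2, 36.9 and 25.8 CPM in healthy LSECs, 875 and 445 CPM at day 1, 143, 146, 46.2 and 27.1 CPM at day 3, and 28.7, 62.1, 47.3 and 43.7 CPM at day 7. Day 1 lay above the healthy range without overlap, whereas day 3 again split into replicates 1 and 2 above it and replicates 3 and 4 inside it. The log2 fold change was 3.72 at day 1 (SE 0.61, adjusted p = 0.00416), 0.85 at day 3 (adjusted p = 0.366) and -0.14 at day 7 (adjusted p = 0.908), and the level fell by 2.87 on the log2 scale from day 1 to day 3 (SE 0.60, adjusted p = 0.0246). Without day 1 replicate 1 the day 1 log2 fold change was 3.13 and did not pass (adjusted p = 0.0579). The fall to day 3 was not called without day 1 replicate 1 (-2.42, adjusted p = 0.238), without day 1 replicate 2 (-3.40, adjusted p = 0.0571) or with only the 2 groups compared (-2.95, adjusted p = 0.109).

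Exons of Mt2 overlap the antisense gene Gm45774 (chromosome 8, 94170748 to 94173412, minus strand), whose counts were 0.723 to 1.597 times those of Mt2 in the 14 libraries. Gm45774 also rose at day 1 (log2 fold change 3.25, SE 0.54, adjusted p = 0.00419) and fell from day 1 to day 3 (-2.87, adjusted p = 0.0145). Reads of these 2 genes cannot be told apart without strand, so that the rise can be assigned to the locus only. Mt1 and Mt2 are also close in sequence, and how reads shared between them were counted is not given in the sources used here.

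**Figure D2:**
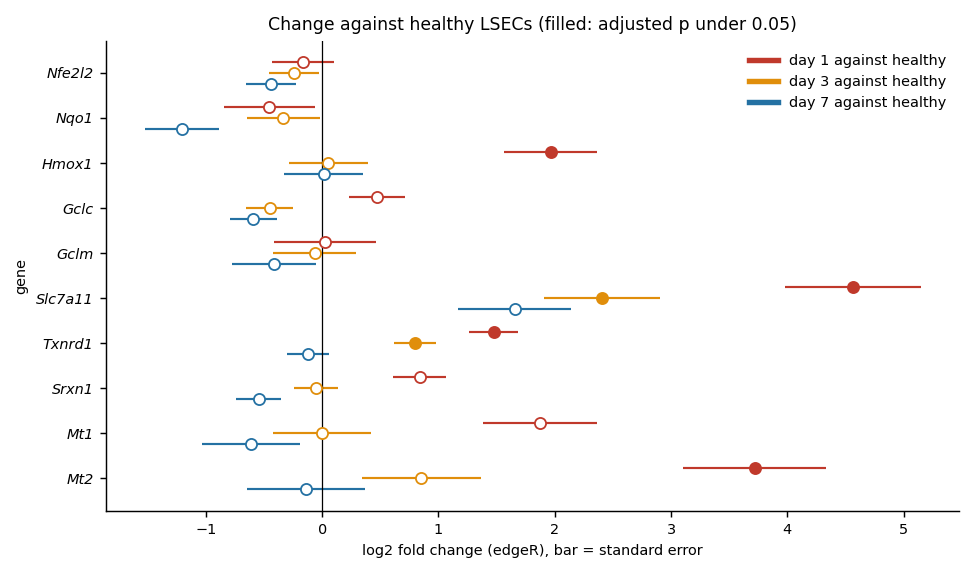
Log2 fold change of the 10 genes against healthy LSECs at days 1, 3 and 7 (edgeR); bars are standard errors and filled points have an adjusted p under 0.05. Slc7a11 (4.56), Mt2 (3.72), Hmox1 (1.96) and Txnrd1 (1.47) are filled at day 1, Slc7a11 (2.40) and Txnrd1 (0.80) at day 3, and no gene at day 7.

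Set against all genes tested, the 4 of 10 called higher at day 1 compare with 2.42% of 26626 genes, and the 0 of 10 called lower with 1.64%. The 10 were chosen with earlier results of these data known, so that they are not a set picked without sight of the data. Groups did not overlap for 7 of the 10 (6 above and 1 below), against 37.9% of all genes in this comparison with only 2 day 1 samples. The median log2 fold change of the 10 was 1.16, and that of all genes -0.03. At day 3, 2 of 10 were called higher (4.62% of all genes), 0 lower (2.58%), and groups did not overlap for 2 of 10 (14.4%), with a median of -0.03 against 0.18 for all genes. Among all genes called, 64.2% were higher at day 3, and 75.1% when libraries were scaled by size only.

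At day 7, edgeR called 0 of 10 higher (2.19% of all genes) and 0 lower (0.992%). Of the 10, 4 had an unadjusted p under 0.05 (Slc7a11 higher, and Nqo1, Gclc and Srxn1 lower), DESeq2 called 2 and limma-voom 5. Groups did not overlap for 5 of 10, against 20.8% of all genes: Slc7a11 lay above the healthy range and Nfe2l2, Nqo1, Gclc and Srxn1 below it. The median of the 10 was -0.43 against 0.02 for all genes, and 68.8% of all called genes were higher, or 86.8% with library size only.

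Between successive times, 0 of 10 were higher at day 3 than at day 1 (1.57% of all genes) and 2 lower, Hmox1 and Mt2 (0.969%). Groups did not overlap for 7 of 10, all lower at day 3, against 21.8% of all genes, whose called share higher was 61.8%, or 71.7% with library size only. The other 5 were Slc7a11, Mt1, Gclc, Srxn1 and Txnrd1, with adjusted p from 0.0579 to 0.130. From day 3 to day 7, 0 of 10 were higher (0.413%) and 1 lower, Txnrd1 (1.36%), and Txnrd1 was also the 1 of 10 without overlap (7.91%). The comparisons share groups, so that their counts are not independent of each other.

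At day 3, Slc7a11, Mt1, Mt2, Nqo1 and Nfe2l2 were all higher in replicates 1 and 2 than in replicates 3 and 4, as were the summed monocyte and neutrophil markers and the macrophage and Kupffer cell markers. The erythroid (red blood cell), lymphocyte and cholangiocyte (bile duct cell) sums divided alike, with erythroid sums of 1129 and 1291 against 237 and 171 CPM. More genes were detected too (31527 and 31179 against 25999 and 21449). The LSEC marker sum was lower in replicates 1 and 2, and the hepatocyte and stellate cell sums did not divide this way. The cause of the split was not tested. Gclc and Gclm were lower in replicates 1 and 2 than in 3 and 4, and Hmox1, Txnrd1 and Srxn1 did not divide this way. The 4 libraries with the highest monocyte and neutrophil marker sums were both of day 1 and replicates 1 and 2 of day 3. They were also the 4 highest of the 14 for Slc7a11 and for Mt2. Of the 4 highest, they held 3 for Mt1, Hmox1 and Txnrd1, 2 for Gclc, Nqo1 and Srxn1, and 1 for Gclm and Nfe2l2. At day 1 both libraries had high monocyte and neutrophil sums, so that time after CCl4 and the level of these markers cannot be told apart. In day 3 replicates 3 and 4, whose sums of 244 and 177 CPM lie inside the healthy range, Txnrd1 (97.2 and 111 CPM) and Slc7a11 (2.51 and 2.06 CPM) were still above every healthy library, and Mt2 (46.2 and 27.1 CPM) was inside the healthy range. With these 2 libraries alone as day 3, a fit added after the data were seen, Txnrd1 kept its call (log2 fold change 0.89, adjusted p = 0.0191). In the same fit Slc7a11 did not pass (1.16, adjusted p = 0.0832), Mt1 was at -1.08 (adjusted p = 0.0840), and Nfe2l2 was called lower (-0.71, adjusted p = 0.0313). Day 3 replicates 3 and 4 also held markers of other cells. Their hepatocyte marker sums were 4347 and 2899 CPM. Healthy replicates 1 to 3 held 383 to 652 CPM, and healthy replicate 4 held 12724 CPM. The stellate cell marker sums of day 3 replicates 3 and 4 were 871 and 2704 CPM, against 165 to 301 CPM in healthy LSECs. The part of leukocytes or these other cells in the day 3 levels of Txnrd1 and Slc7a11 was not tested.

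**Figure D3:**
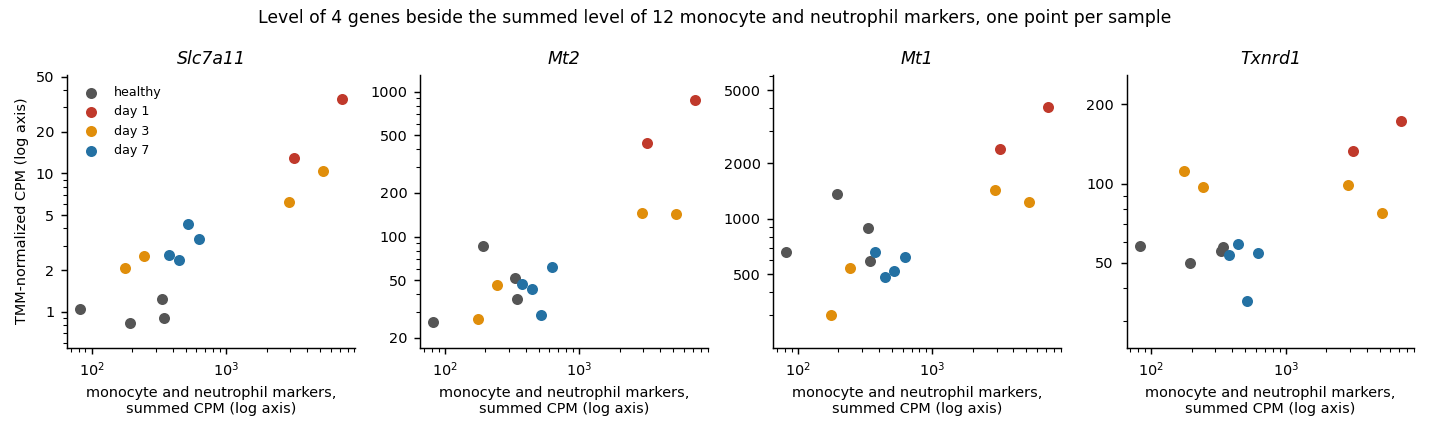
Level of Slc7a11, Mt2, Mt1 and Txnrd1 (CPM, log axis) beside the summed level of 12 monocyte and neutrophil markers (CPM, log axis) in the 14 samples, coloured by group. Slc7a11 and Mt2 are highest in the 4 samples with marker sums from 2924 to 7243 CPM, while Txnrd1 at day 3 is at 97.2 and 111 CPM also in the 2 samples with sums of 244 and 177 CPM. Day 3 replicates 1 and 2 also had higher erythroid, lymphocyte and cholangiocyte marker sums than replicates 3 and 4.

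The wider pathways were read from lists of other genes, chosen with earlier results of these data known. Their counts stand beside the shares of all genes called, 2.42% higher and 1.64% lower at day 1, 4.62% and 2.58% at day 3, and 2.19% and 0.992% at day 7. At day 1, 5 of 26 other glutathione genes were called. Gsto1, a glutathione transferase of the omega class, rose from 53.7 ± 7.65 CPM (SD, n = 4) to 136 ± 34.7 (n = 2), a log2 fold change of 1.34 (SE 0.33, adjusted p = 0.0395). The transferases Gstt1 (log2 fold change -3.89, adjusted p = 0.0370), Gstm1 (-2.03, adjusted p = 0.00650) and Gstm2 (-1.28, adjusted p = 0.0146) and the microsomal Mgst3 (-2.00, adjusted p = 0.0162) fell. The list's median log2 fold change was -0.55, against -0.03 for all genes. Of 18 genes for xenobiotic metabolism and efflux, 0 rose and 4 fell at day 1, the carboxylesterase Ces2g (-2.36), the quinone reductase paralog Nqo2 (-2.02), the epoxide hydrolase Ephx1 (-2.01) and the aldo-keto reductase Akr1b10 (-1.32), with adjusted p from 0.00327 to 0.0162.

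Hepatocytes express many of these enzymes strongly, and their 14 markers were lower at day 1 as well. Of these markers, 10 were below the healthy range at day 1, where 37.9% of all genes did not overlap in either direction. Hpd was the 1 called lower (1.64% of all genes), and Tat was at 0 in a day 1 library. Between the healthy libraries, Gstt1 ranged from 3.88 to 32.9 CPM and Gstm1 from 121 to 232 CPM. Gstm2 ranged from 283 to 409 CPM and Mgst3 from 38.7 to 58.2 CPM. Ces2g ranged from 90.3 to 109 CPM and Akr1b10 from 45.5 to 51.6 CPM. The part of hepatocyte RNA in these falls was not tested. Ephx1 and Nqo2 share exon positions with other annotated genes, so that their counts are uncertain.

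NADPH supplies the reducing power for Txnrd1 and Nqo1. Of 11 genes for its supply, 2 rose and 1 fell at day 1. Mthfd2, a mitochondrial folate enzyme, went from 3.98 ± 1.84 CPM (SD, n = 4) to 15.1 ± 3.06 (n = 2), a log2 fold change of 1.92 (SE 0.38, adjusted p = 0.0115). G6pdx, the entry enzyme of the pentose phosphate pathway, whose exons overlap Ikbkg, rose by 1.10 (adjusted p = 0.0261), and the isocitrate dehydrogenase Idh2 fell by 0.85 (adjusted p = 0.0354). Mthfd2 was still raised at day 3 (2.20, adjusted p = 0.00281), at 18.3 ± 3.31 CPM (n = 4), and fell again by day 7 (-1.76 against day 3, adjusted p = 0.0206).

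Among 13 thioredoxin and peroxiredoxin genes at day 1, the reductase Txnrd3 rose (1.66, adjusted p = 0.0202) and the sestrin Sesn1 fell (-1.35, adjusted p = 0.0136). At day 3, Txnip, which binds and inhibits thioredoxin, fell from 891 ± 185 to 264 ± 52.4 CPM (SD, n = 4 each; log2 fold change -1.75, SE 0.25, adjusted p = 0.00212), and Sesn1 was again lower (-1.45, adjusted p = 0.00270). Both were higher at day 7 than at day 3, by 1.23 and 0.97 (adjusted p = 0.0263 and 0.0383). Txnip overlaps the annotated gene Gm15441.

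Of 9 heme and iron genes, the iron exporter Slc40a1 fell at day 1 (-1.11, adjusted p = 0.0403) and day 3 (-1.43, adjusted p = 0.00281), and the heme-forming enzyme Fech at day 3 (-0.54, adjusted p = 0.0342). No other gene of heme handling was called higher beside Hmox1. At day 1, 3 of the 9 were above the healthy range and 4 below it, against 37.9% of all genes without overlap in either direction. Those above were Fth1 (1957 ± 126 CPM, SD, n = 4, in healthy LSECs and 4120 ± 1616, n = 2, at day 1), Ftl1 (3232 ± 472 and 4810 ± 597) and Blvra (65.8 ± 8.57 and 82.2 ± 7.06). Of 4 superoxide dismutases and catalase, Sod3, the secreted form, rose at day 3 (2.40, adjusted p = 0.0160) and day 7 (2.99, adjusted p = 0.0121). Sod3 was at 15.03 ± 6.11 CPM (SD, n = 4) in healthy LSECs and 79.4 ± 20.3 at day 3. The 13 stellate cell markers moved with it, with a sum of 165 to 301 CPM in healthy LSECs, 871 to 2704 CPM at day 3 (10 of 13 called higher) and 481 to 7730 CPM at day 7 (12 of 13). Their part in the rise of Sod3 was not tested.

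Around the metallothioneins, 23 of 25 zinc and metal genes could be tested, and 2 rose and 1 fell at day 1. Slc30a1, the zinc exporter of the plasma membrane and a known target of Mtf1, rose from 15.6 ± 1.90 CPM (SD, n = 4) to 33.4 ± 3.32 (n = 2), a log2 fold change of 1.10 (SE 0.23, adjusted p = 0.0169), and was lower again at day 3 (-1.32 against day 1, adjusted p = 0.0111). Slc30a4, another zinc exporter, rose by 0.94 (adjusted p = 0.0440) and was also lower at day 3 than at day 1 (-1.49, adjusted p = 0.00812). The importer Slc39a8 fell from 323 ± 15.3 to 83.3 ± 5.71 CPM at day 1 (-1.95, adjusted p = 0.0136) and stayed lower at day 3 (-1.43, adjusted p = 0.0131). Slc39a14, an importer induced by inflammation, was at 0.77 (adjusted p = 0.557), and Mtf1 at -0.02 at day 1 (adjusted p = 0.995) and -0.90 at day 7 (adjusted p = 0.0517). Slc30a1, Slc30a4 and Mtf1 overlap other annotated genes in their exons.

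Slc7a11 is also a target of Atf4, the factor of the amino acid response. Of 15 other genes of that program, Asns, asparagine synthetase, rose from 0.960 ± 0.135 CPM (SD, n = 4) to 7.43 ± 3.44 (n = 2) at day 1 (log2 fold change 2.95, SE 0.39, adjusted p = 0.000931), Cebpb rose (1.83, adjusted p = 0.0290) and Atf3 fell (-1.77, adjusted p = 0.0101). At day 3, Nupr1 (3.14, adjusted p = 0.0136), the serine synthesis enzyme Psat1 (2.79, adjusted p = 0.00273) and Asns (2.53, adjusted p = 0.00200) were higher. Atf4 itself was called only at day 7 among the comparisons with healthy LSECs, where it was lower (-0.97, adjusted p = 0.0287), and Asns fell from day 3 to day 7 (-1.44, adjusted p = 0.0481). The list's median log2 fold change was 0.18 at day 1 and 0.01 at day 3, against -0.03 and 0.18 for all genes.

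**Figure D4:**
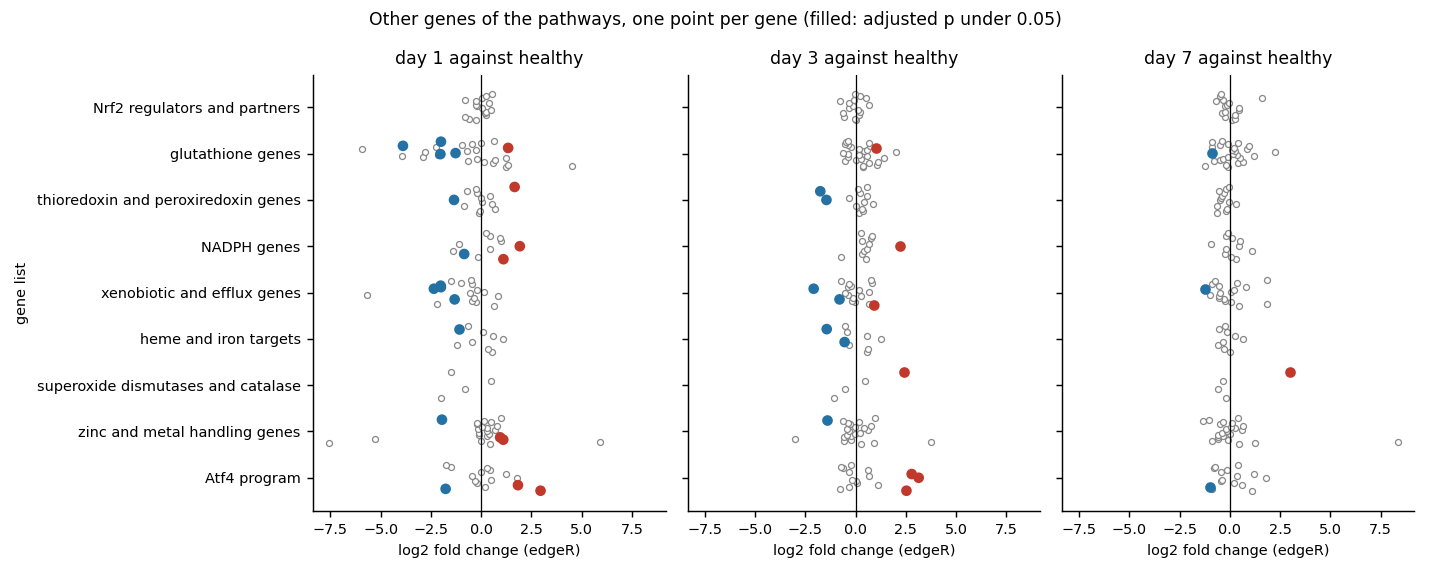
Log2 fold change against healthy LSECs (edgeR) of the other genes in 9 pathway lists at days 1, 3 and 7; each point is 1 gene and filled points have an adjusted p under 0.05, red higher and blue lower. At day 1, 4 glutathione genes and 4 xenobiotic genes are blue, and no Nrf2 regulator is filled at any time.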

How the data were processed

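RNA of sorted LSECs from 14 mice in 4 groups was sequenced, and groups were taken from the sample labels. The authors used FastQC and AfterQC for quality control, STAR for alignment to GRCm38.p6 and StringTie for assembly, and deposited raw counts per Ensembl gene, unnormalized. Annotation release, strand and the making of whole counts are not given in the sources used here. Symbols and positions came from GENCODE vM21.

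Counts were filtered with filterByExpr (minimum count 10, minimum total 15), scaled by TMM and compared in edgeR (version 4.0.16 under R 4.3.3), whose quasi-likelihood test was run on 1 model of 4 group means over 14 samples, with Benjamini-Hochberg adjustment over 26626 genes and a threshold of 0.05. Standard errors are the absolute log2 fold change over the square root of F. Under 3 counts a gene was taken as not detected. This floor covers counting error only. The p-values set a difference between groups against the spread between samples, which was estimated over all 4 groups together because day 1 has 2 samples. Alternatives were DESeq2 1.42.0, limma 3.58.1 (voom, sample weights), other scalings and filters, only the compared groups, the sample number as a block, and each sample left out. The fit was tested on simulated counts. Members and lists were chosen with earlier results of these data known. All 10 members are named, and of each list the called genes with the largest changes, up to 4 per comparison, plus Keap1, Bach1, Mtf1, Slc3a2, Slc30a1 and Slc39a14.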

Additional observations from a re-analysis of the deposited data

Results flagged for a closer look

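Gclm was at 71.9 CPM in healthy replicate 4 and at 41.5 CPM in day 7 replicate 3, each far from the other 3 libraries of its group. Of 30 groups of 4 libraries checked over the 10 genes, these 2 were set apart, and chance gives about 1 in 20. Healthy replicate 4 also had a hepatocyte marker sum of 12724 CPM against 383 to 652 in the other healthy libraries; its part in the Gclm level was not tested.

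The change against healthy LSECs differed between day 1 and day 3 for Hmox1 (-1.91 on the log2 scale) and Mt2 (-2.87), and between day 3 and day 7 for Txnrd1 (-0.92), each by the direct comparison of the 2 times in edgeR's model.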

How the results depend on the processing

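Of the log2 fold changes of the 10 genes in 5 comparisons, none of those called turned direction under any alternative. Among all values, 709 kept their side of the threshold, 53 newly passed and 28 no longer passed. Some values that were not called did turn direction, such as that of Gclm at day 1, which kept its direction in 4 of 14 alternatives. The counts moved more, and the cause was not tested. For day 1, day 3 and day 7 against healthy, day 3 against day 1 and day 7 against day 3, the model called 1080, 1915, 846, 676 and 472 genes and 4, 2, 0, 2 and 1 members. DESeq2 called 2745, 3633, 2602, 2314 and 1663 genes, with 2 members at day 7 and 6 for day 3 against day 1. Limma-voom called 4308, 7265, 7047, 3344 and 6002 genes, with 7 members at day 1, 5 at day 7, 7 for day 3 against day 1 and 5 for day 7 against day 3. Fitting only the 2 groups compared gave 2327, 1108, 3156, 189 and 1 genes, with 1 member at day 3, 2 at day 7 and 0 in both later comparisons. Library size only gave 287 genes for day 7 against day 3 with 0 members, and 4 members for day 3 against day 1. No filter gave 157 genes and 0 members for day 7 against day 3, and 1 member at day 3. At least 10 counts in every sample gave 2 members at day 7 and 5 for day 3 against day 1. With day 3 replicates 3 and 4 only, chosen after seeing the data, 1923 genes and 4 members were called for day 3 against day 1.

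Without 1 replicate, 164 to 810 genes and 1 to 5 members were called at day 1, 946 to 3314 and 1 to 2 at day 3, and 193 to 1509 and 0 to 1 at day 7. Day 3 against day 1 gave 49 to 915 and 0 to 4, and day 7 against day 3 gave 26 to 1652 and 0 to 1. Without day 1 replicate 1, Slc7a11 alone of the members was called at day 1 (3.65), while Mt2 (3.13, edgeR's adjusted p = 0.0579), Txnrd1 (1.24, adjusted p = 0.0991) and Hmox1 (0.96, adjusted p = 0.646) did not pass. The day 3 call of Txnrd1 was also lost without healthy replicate 1, 2 or 4 or day 3 replicate 3 (adjusted p = 0.0556 to 0.0850), and its day 7 against day 3 call in 10 of 17 alternatives.

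Sample numbers did not pair the samples: of 18 same-numbered pairs 0 correlated over 0.1 (-0.232 to 0.0962). With the number as a replicate block, 594 genes were called at day 1, 435 at day 7, 311 for day 3 against day 1 (1 member) and 244 for day 7 against day 3, with 3 members at day 1. With 2 samples, day 1 has the least precision.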
